A study of Mus musculus with 6 samples.

Results

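The p38 stress kinase pathway genes described here are 10 genes listed by symbol: Map2k3, Map2k6, Mapk14, Mapk12, Mapkapk2, Mapkapk3, Mknk1, Mknk2, Dusp1 and Dusp10. Their 19 probes, among 45281 on the array, were chosen by the gene symbol that the platform annotation gives each probe. All 10 genes and 18 of the 19 probes passed the filter on dim signal, which kept 17738 probes and 10196 named genes.

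Expression was measured in quadriceps muscle of NOD-SCID mice, an immunodeficient strain without functional T and B lymphocytes, fed freely. Every mouse carried human renal cancer cells under the skin, and muscle was taken on day 22. In the RXF393 group the transplanted cells are described as cachectic, meaning that they cause wasting, and in the SKRC39 group as not cachectic. No muscle from mice without tumour cells was analysed here, the age and sex of the mice are not given in the sources used here, and each group rests on 1 tumour cell line.

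Title, source name and characteristics name one line on 4 of the 6 arrays. These are RXF393 replicates 2 and 3 and SKRC39 replicates 1 and 2, which were compared. The array titled RXF_1 is called SKRC39 in its other labels, and the array titled SKR_3 is called RXF393 in its other labels, so both are shown apart. The number of mice behind each line is not clear from the design text, which speaks of 3 mice. If each array is 1 mouse, the p-values measure the spread between mice, and otherwise a spread that may be technical.

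p38 kinases are mitogen-activated protein kinases (MAP kinases) switched on by inflammatory cytokines, osmotic stress and contraction. The MAP kinase kinases MKK3 and MKK6 phosphorylate them in the activation loop, and active p38 passes the signal to further kinases, the MAPKAP kinases and the MNKs. These act on mRNA stability, small heat shock proteins and the translation factor eIF4E, while dual-specificity phosphatases (DUSPs) switch p38 off. In skeletal muscle p38 is known for its part in differentiation of muscle precursor cells and in the response to inflammatory signals. Arrays measure the mRNA of these genes, and kinase activity was not measured here.

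Promoters are shown for Mknk2 and Dusp1, the 2 members with a positive change in muscle of RXF393-bearing mice, and for Dusp10, the phosphatase with a negative change. Of these, only Mknk2 passed the threshold used below. Each line gives the 250 bases before the start site, 5′ to 3′ on the gene's own strand, from RefSeq (GRCm38.p6). They lie at chr10:80676294-80676543 on the minus strand, chr17:26508473-26508722 on the minus strand and chr1:184034131-184034380 on the plus strand. Capitals mark matches on either strand to the cAMP response element (CRE) TGACGTCA or its core TGACG, the E-box CACGTG and the TATA box TATAAA. They also mark the AP-1 site TGANTCA, the FoxO site GTAAACA and the STAT site TTCNNNGAA.
Mknk2: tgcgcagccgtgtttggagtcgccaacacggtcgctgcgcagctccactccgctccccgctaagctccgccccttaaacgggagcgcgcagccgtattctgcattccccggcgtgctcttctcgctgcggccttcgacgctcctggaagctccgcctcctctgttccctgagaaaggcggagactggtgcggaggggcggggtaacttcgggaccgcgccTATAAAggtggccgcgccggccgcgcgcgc
Dusp1: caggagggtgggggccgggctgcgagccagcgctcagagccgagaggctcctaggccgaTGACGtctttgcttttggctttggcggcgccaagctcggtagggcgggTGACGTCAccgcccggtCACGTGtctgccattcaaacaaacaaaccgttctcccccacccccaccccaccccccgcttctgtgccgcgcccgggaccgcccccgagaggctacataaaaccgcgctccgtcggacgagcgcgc
Dusp10: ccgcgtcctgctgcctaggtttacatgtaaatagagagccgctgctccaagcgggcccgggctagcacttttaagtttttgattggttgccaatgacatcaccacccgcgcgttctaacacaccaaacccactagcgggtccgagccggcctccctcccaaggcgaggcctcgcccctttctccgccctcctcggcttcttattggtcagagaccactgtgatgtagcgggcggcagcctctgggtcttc
The Dusp1 promoter holds the full CRE from 143 to 136 bases before the start site, an element found in 1.55% of 32851 promoter windows of this length, and it overlaps 2 of the 3 core matches there. An E-box follows from 126 to 121 bases before the start. The Mknk2 promoter holds a TATA box from 30 to 25 bases before the start, which 12.4% of all windows hold somewhere. No match in capitals was found in the Dusp10 window.

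All 10 members were found in the RefSeq promoter table, with 15 windows. The E-box was found in 5 of 15 member windows, in Dusp1, Mapk12, Mapkapk3 and Mknk1, and in 6.02% of all windows. The overlapping windows of Mknk1 share 1 site. The TATA box was found in 2 member windows, in Map2k6 and Mknk2 (12.4% of all windows). The CRE core was found in 2 member windows, in Dusp1 and Mapkapk3 (17.8% of all windows), and the AP-1 site in 1 window of Map2k6 (6.75%). The STAT site was found in 1 window of Mapk14 (7.02%) and the FoxO site in 0 of 15 windows (3.17%). GC boxes (GGGCGG, not in capitals) were found in 7 member windows and in 32.7% of all. Median GC content was 59.6% over the member windows and 52.4% over all windows. These matches are descriptions of letters, not of bound sites.

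The share of probes detected was 33.7% and 30.9% on RXF393 replicates 2 and 3, against 37.7% and 33.7% on SKRC39 replicates 1 and 2. Over 10196 genes, the array titled SKR_3 correlated most closely with RXF393 replicate 3 (r = 0.985) and the array titled RXF_1 with SKRC39 replicate 1 (r = 0.983). The 2 RXF393 arrays correlated with each other at 0.910 and the 2 SKRC39 arrays at 0.951. RXF393 replicate 2 correlated more closely with SKRC39 replicates 1 and 2 (r = 0.932 and 0.935) than with RXF393 replicate 3. These correlations are across genes, which are not independent replicates. All 10 skeletal muscle markers were detected on every array. For the 4 tested neutrophil markers, of 12 listed, the summed signal was 1868 and 6113 on the RXF393 arrays. It was 203 and 548 on the SKRC39 arrays. Of these markers, 3 had a positive change and 1 a negative one. Ngp, Camp, Ltf, Mmp8, Mpo, Elane and Cxcr2 were detected on no array. The summed signal of the 9 tested fibroblast markers, of 10 listed, was 20731 and 25824 on the RXF393 arrays, against 30811 and 37086 on the SKRC39 arrays, and Postn was detected on none. All 9 tested fibroblast markers had a negative change, with a median of -1.89. The summed signal of the 3 tested erythroid markers, of 8 listed, was 78863 and 74707 on the RXF393 arrays, against 67394 and 26583 on the SKRC39 arrays. All 3 had a positive change, with a median of 2.61. For the 8 tested macrophage and monocyte markers the sums were 2311 and 2253 with RXF393, against 2554 and 3904 with SKRC39. The 5 adipocyte markers gave 393 and 1607 with RXF393, against 423 and 2586 with SKRC39. The 7 endothelial markers gave 12294 and 14488 with RXF393, against 12531 and 15216 with SKRC39. Positive and negative changes numbered 2 and 6 for macrophage and monocyte markers, 2 and 3 for adipocyte markers, and 3 and 4 for endothelial markers. What part these cells have in the members' values was not tested. In whole muscle, fewer cells of a type and less RNA per cell cannot be told apart.

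In muscle of RXF393-bearing mice, Mknk2 was the member that rose, 4.52-fold, and no member fell past the threshold. Of the other 9 members, Dusp1 had a positive log2 change and 8 had a negative one, among them Map2k6, detected on neither RXF393 array. The change of Dusp10 was -2.28. Those of Mapk14, Mapk12, Mapkapk2, Mapkapk3 and Map2k3 rested mainly on RXF393 replicate 3, and the array titled SKR_3 was low for these genes too. The change of Dusp1, 1.12, also rested mainly on RXF393 replicate 3, being 0.50 without that array. Values are log2 intensities, and a change is RXF393 minus SKRC39 with its standard error (SE, n = 2 arrays per group). A gene is represented by its brightest tested probe, and it passed if its adjusted p in limma was under 0.05, with Benjamini-Hochberg adjustment over all probes tested.

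The 1 member of 10 that passed is set against 0.353% of all genes tested, 0.196% being higher and 0.157% lower. At an unadjusted p under 0.05, 2 members were higher (Mknk2 and Dusp1) and 2 lower (Dusp10 and Mapkapk2), beside 8.1% and 6.69% of all genes. Both RXF393 arrays lay above both SKRC39 arrays for 2 members and below them for 6, beside 28.1% and 20.6% of all genes. Map2k6 is one of these 6. It was detected on neither RXF393 array nor on SKRC39 replicate 2, so its order among those arrays was not measured. Mapkapk3 is another of the 6, and it counts as below by a narrow margin. RXF393 replicate 2 stood at 10.60 for it and SKRC39 replicate 2 at 10.61. A positive change was seen in 2 members, beside 53.5% of all genes, and a negative one in 8, beside 46.5%. The median change of the members was -1.08 and that of all genes 0.07. Map2k6 is one of these 8 and enters the median. It passed the filter on dim signal only through SKRC39 replicate 1 and the array titled RXF_1, so its sign follows in part from the filter. The members were chosen with earlier results of these data known, so these shares and medians are descriptions only. With 2 arrays against 2, an exact permutation test of 1 value cannot give a two-sided p under 0.333.

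**Figure D1:**
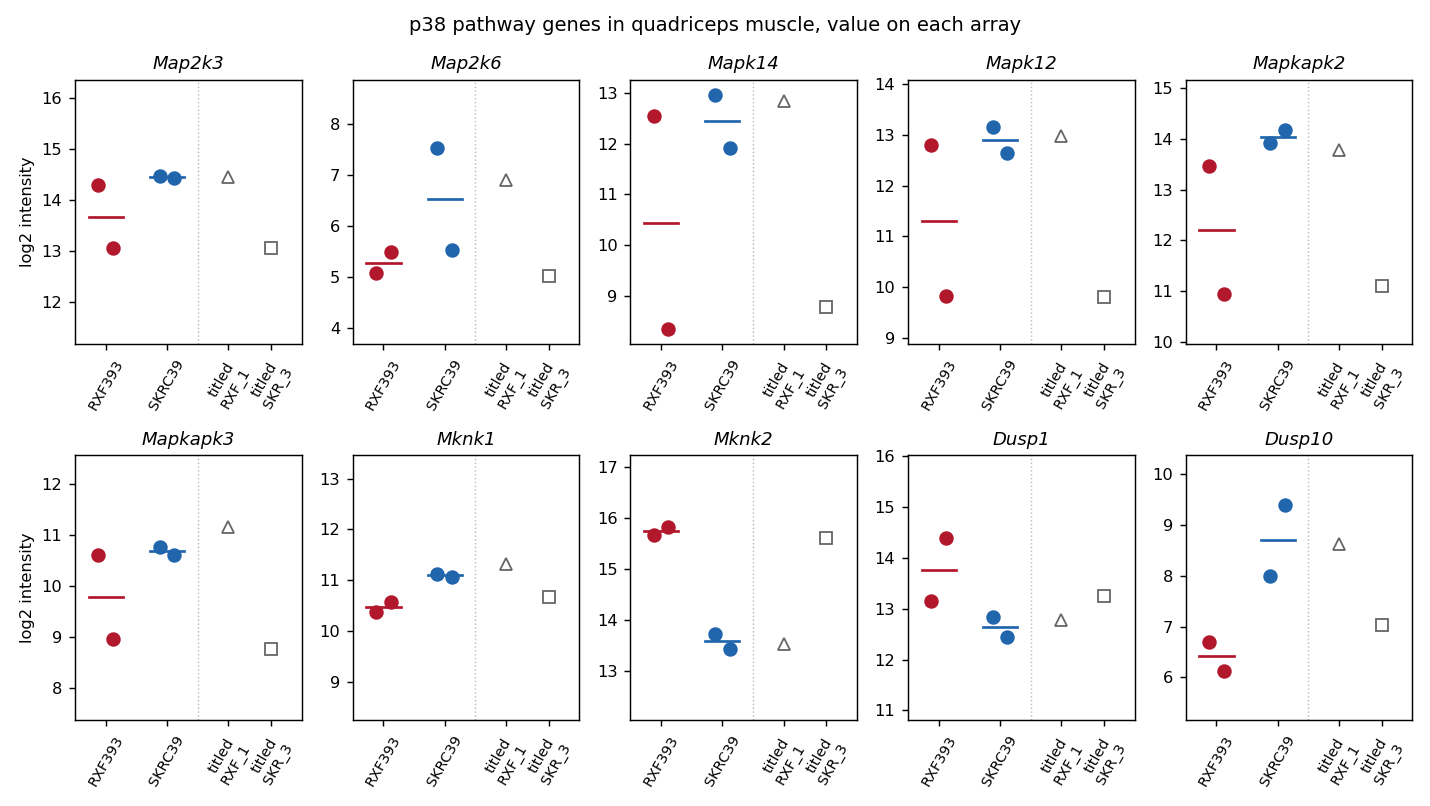
Log2 intensity of each p38 pathway gene (brightest probe) on each array, with RXF393 in red, SKRC39 in blue, the group mean as a line, and the arrays titled RXF_1 and SKR_3 as open symbols; every panel spans the same range of log2 units. Mknk2 sits at 15.67 and 15.82 with RXF393 against 13.72 and 13.43 with SKRC39, while the 2 RXF393 arrays lie far apart for Mapk14, Mapk12 and Mapkapk2.

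Mknk2 encodes MNK2, a kinase that phosphorylates eIF4E and is itself a target of p38 and ERK. It stood at 15.67 and 15.82 on RXF393 replicates 2 and 3, against 13.72 and 13.43 on SKRC39 replicates 1 and 2. The groups were far apart compared with the gap within either group. The mean was 15.75 ± 0.11 with RXF393 and 13.57 ± 0.20 with SKRC39 (SD, n = 2 each), a change of 2.17 ± 0.25 (adjusted p = 0.0335, limma). The array titled SKR_3 stood at 15.61, beside the RXF393 arrays, and the array titled RXF_1 at 13.52, beside the SKRC39 arrays. In raw intensity the RXF393 arrays reached 71.4% and 82.2% of the highest signal on their array, near the top of the range, where a change can be compressed. The gene has 1 probe here, so no other probe checks it. The call was lost in the fit without RXF393 replicate 3, where the change was 2.10. It was also lost under median scaling (2.38, adjusted p = 0.15, limma) and without the intensity trend (adjusted p = 0.23, limma). With all 6 arrays grouped by title it was lost too (0.75, adjusted p = 1.00, limma). The change kept its direction in all 17 alternatives and passed in 13.

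Mknk1 encodes MNK1, the related kinase with the same substrate. Its brightest probe stood at 10.38 and 10.58 on the RXF393 arrays, against 11.13 and 11.07 on the SKRC39 arrays. The groups did not overlap, but the change of -0.62 ± 0.42 did not pass (adjusted p = 0.55, limma). Another tested probe, at 9.29 and 8.54 with RXF393 against 10.46 and 9.46 with SKRC39, had a change of -1.04 ± 0.62. The third probe was not detected on any array.

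The 2 MNK genes thus had changes of opposite sign, and the difference between them was not tested.

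Mapkapk2 encodes MK2, the main p38-activated kinase acting on mRNA-binding proteins and on HSP27. It stood at 13.46 and 10.94 on RXF393 replicates 2 and 3, against 13.91 and 14.17 on the SKRC39 arrays. Both RXF393 arrays were lower, and replicate 3 by far the more. The change was -1.84 ± 0.74 (adjusted p = 0.37, limma). Without RXF393 replicate 2 it was -3.10 and passed (adjusted p = 0.0137, limma), and without RXF393 replicate 3 it was -0.58 (adjusted p = 0.81, limma). The array titled SKR_3 stood at 11.11 and the array titled RXF_1 at 13.77.

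Mapkapk3 encodes MK3, a close relative of MK2. Its brightest probe stood at 10.60 and 8.95 on the RXF393 arrays, against 10.76 and 10.61 on the SKRC39 arrays. RXF393 replicate 2 lay beside the SKRC39 arrays, and replicate 3 lay below them. The change was -1.74 without RXF393 replicate 2 and -0.09 without RXF393 replicate 3. A further probe, from the same transcript accession, stood at 10.13 and 7.50 with RXF393 against 10.46 and 9.82 with SKRC39. The third probe, designed to a separate cDNA accession and dim on all arrays, went the other way, at 6.90 and 7.36 with RXF393 against 6.24 and 6.32 with SKRC39. The changes of these 3 probes were -0.91 ± 0.64, -1.32 ± 0.89 and 0.85 ± 0.60, and none passed (adjusted p = 0.55, 0.54 and 0.56, limma).

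**Figure D2:**
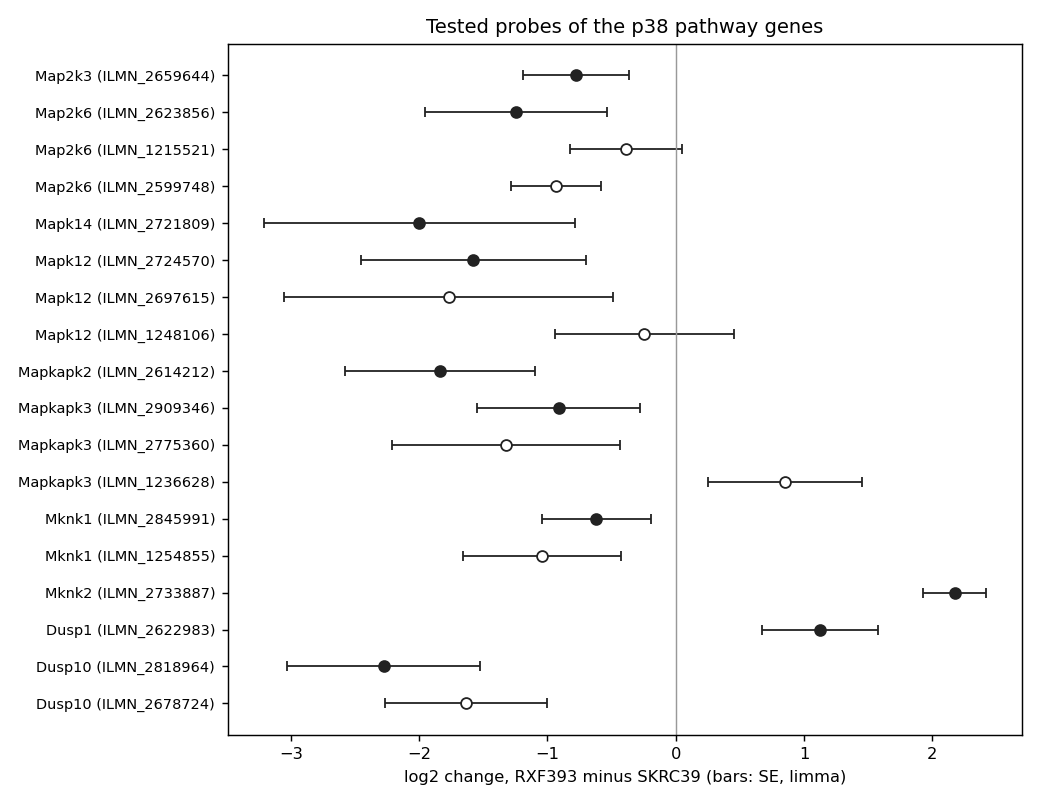
Log2 change of RXF393 minus SKRC39 (horizontal axis) for the 18 tested probes of the members, with the standard error from limma as bars; filled points mark the probe that represents its gene. Mknk2 lies at 2.17, Dusp1 at 1.12 and 1 dim Mapkapk3 probe at 0.85, and the other 15 probes lie below 0.

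Mapk14 encodes p38 alpha, the broadly expressed p38 kinase. Its level, read by 1 probe, was 12.53 and 8.35 on RXF393 replicates 2 and 3, against 12.96 and 11.92 on SKRC39 replicates 1 and 2. RXF393 replicate 2 lay between the SKRC39 arrays, so the groups overlapped, while replicate 3 was 4.09 below the SKRC39 mean. The change was -2.00 ± 1.21 (adjusted p = 0.51, limma). Leaving out RXF393 replicate 3 turned its direction (0.09, adjusted p = 0.99, limma), and leaving out RXF393 replicate 2 gave -4.09, which passed (adjusted p = 0.0210, limma). The array titled SKR_3 was also low, at 8.80, and the array titled RXF_1 stood at 12.83.

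Mapk12 encodes p38 gamma, the isoform abundant in skeletal muscle. Its brightest probe stood at 12.80 and 9.82 on the RXF393 arrays, against 13.14 and 12.64 on the SKRC39 arrays, with 9.81 on the array titled SKR_3 and 12.98 on the array titled RXF_1. As for Mapk14, replicate 2 lay between the SKRC39 arrays and replicate 3 below them. The change was -1.58 ± 0.88 (adjusted p = 0.48, limma), -3.07 without RXF393 replicate 2 (adjusted p = 0.0219, limma) and -0.09 without RXF393 replicate 3 (adjusted p = 0.99, limma).

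The other Mapk12 probes were dimmer. One stood at 8.08 and 5.27 with RXF393 against 9.98 and 6.92 with SKRC39, and it was not detected on RXF393 replicate 3. The third was detected on 1 of 2 arrays of each group and had a change of -0.25 ± 0.70, close to background. Of the p38 isoforms outside the members, looked up after the values were seen, Mapk11 (p38 beta) stood at 0.21 ± 0.66 (adjusted p = 0.90, limma), and no probe of Mapk13 (p38 delta) passed the filter.

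Map2k3 encodes MKK3, an activator of p38. It stood at 14.30 and 13.06 on the RXF393 arrays, against 14.47 and 14.44 on the SKRC39 arrays, and at 13.07 on the array titled SKR_3. The SKRC39 arrays differed by 0.03, and RXF393 replicate 3 was 1.39 below their mean. The change of -0.78 ± 0.42 did not pass (adjusted p = 0.47, limma), and it was -0.16 without RXF393 replicate 3.

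Map2k6 encodes MKK6, the other dedicated activator of p38. Its brightest probe stood at 5.07 and 5.50 with RXF393, not detected on either array, against 7.53 and 5.54 with SKRC39, detected on replicate 1 alone. It was also detected on the array titled RXF_1, at 6.90. With the RXF393 arrays at their bound and the SKRC39 arrays at their values, the means were 1.71-fold apart. SKRC39 replicate 2 was itself not detected, so this fold is not a firm lower bound. The fitted change was -1.25 ± 0.71 (adjusted p = 0.49, limma). It rested on SKRC39 replicate 1, being -0.25 without that array and -2.24 without SKRC39 replicate 2. The other 2 probes were likewise detected on SKRC39 replicate 1 and on the array titled RXF_1 and on no other array, so the gene is measured at the edge of detection here.

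Dusp1 encodes MKP-1, a phosphatase induced by stress that inactivates p38 and JNK. It stood at 13.14 and 14.38 on the RXF393 arrays, against 12.84 and 12.44 on the SKRC39 arrays. Both RXF393 arrays were higher, and replicate 3 by the larger step. The change was 1.12 ± 0.45, 2.18-fold, and it did not pass (adjusted p = 0.37, limma). Without RXF393 replicate 2 it was 1.74 and passed (adjusted p = 0.0498, limma), and without RXF393 replicate 3 it was 0.50 (adjusted p = 0.89, limma). The arrays titled SKR_3 and RXF_1 stood at 13.24 and 12.77.

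Dusp10 encodes MKP-5, a phosphatase that also acts on p38 and JNK. Its brighter probe stood at 6.70 and 6.13 with RXF393, against 7.99 and 9.39 with SKRC39. On this probe the arrays titled SKR_3 and RXF_1 stood at 7.04 and 8.61. The other Dusp10 probe stood at 6.19 and 5.74 with RXF393, where replicate 3 was not detected, against 7.92 and 7.29 with SKRC39. There the array titled SKR_3 stood at 5.44, not detected, and the array titled RXF_1 at 8.03. On both probes the groups did not overlap, and the changes of -2.28 ± 0.75 and -1.64 ± 0.63 missed the threshold (adjusted p = 0.30 and 0.36, limma). The change on the brighter probe was -2.98 without SKRC39 replicate 1, -1.58 without SKRC39 replicate 2, -1.44 in the authors' normalized table and -1.38 without background subtraction. With all 6 arrays grouped by characteristics it was -2.04 and passed (adjusted p = 0.0287, limma). The 2 phosphatase genes had changes of opposite sign on every probe.

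The members' values were next compared array by array. From each gene's SKRC39 mean, the members' median distance was -0.12 on RXF393 replicate 2 and -1.57 on RXF393 replicate 3. It was -1.58 on the array titled SKR_3 and 0.11 on the array titled RXF_1. Over all genes these medians were 0.00, 0.18, 0.15 and -0.01. Between the 2 RXF393 arrays the median size of the difference was 1.24 for the members and 0.62 for all genes. Between the 2 SKRC39 arrays it was 0.35 for the members and 0.48 for all genes. Of the 10 members, 4 had their lowest value on RXF393 replicate 3 and 3 on the array titled SKR_3. RXF393 replicate 3 minus replicate 2 was -4.18 for Mapk14, -2.98 for Mapk12, -2.52 for Mapkapk2, -1.65 for Mapkapk3, -1.24 for Map2k3 and 1.24 for Dusp1. It was closer to 0 for the other 4, at -0.58 for Dusp10, 0.15 for Mknk2, 0.21 for Mknk1 and 0.43 for Map2k6. SKRC39 replicate 2 minus replicate 1 was larger in size than the RXF393 difference for Map2k6 (-1.99), Dusp10 (1.40) and Mknk2 (-0.29), and smaller for the other 7 members, with -1.04 for Mapk14. The difference in spread between the groups was not tested. RXF393 replicate 3 also had the lowest share of detected probes among the 4 arrays compared and the higher neutrophil signal, and the part of either in these gaps was not tested.

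**Figure D3:**
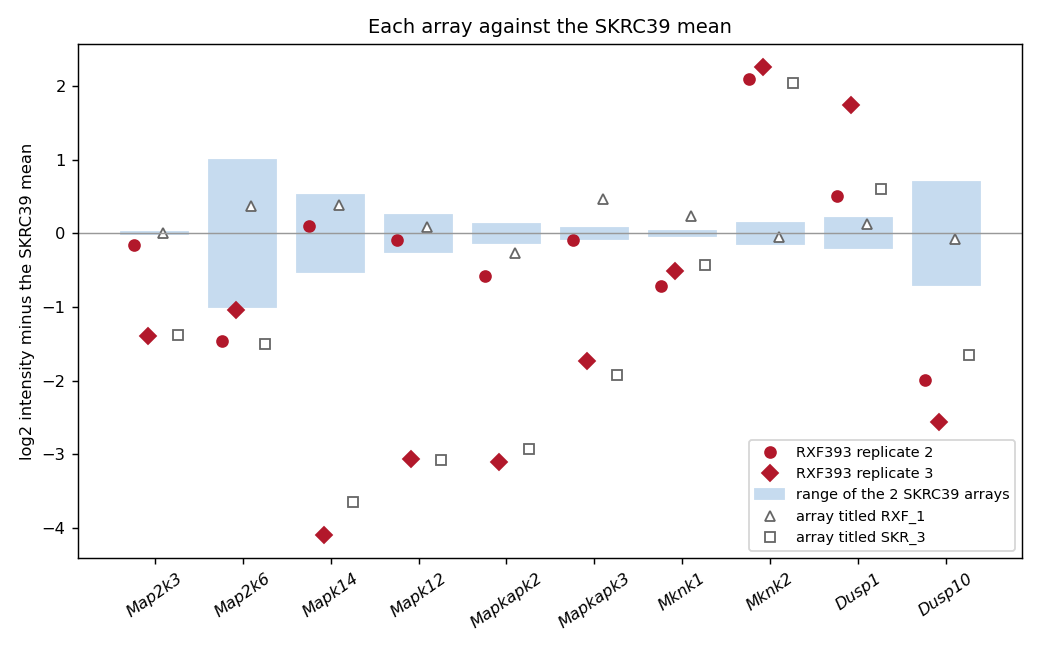
Log2 intensity of each member on single arrays minus its SKRC39 mean (vertical axis), with the 2 RXF393 arrays in red, the range of the SKRC39 arrays as a blue box, and the arrays titled RXF_1 and SKR_3 as open symbols. Mapk14 lies at 0.09 on RXF393 replicate 2 and at -4.09 on replicate 3, whereas Mknk2 lies at 2.10 and 2.25.

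The wider pathway was followed in gene lists around the members. Upstream kinases and adaptors comprised 24 genes, of which 20 were tested, and 0 passed in limma. At an unadjusted p under 0.05, 3 were higher and 1 lower, and the median change was 0.17. Map3k8, the kinase TPL2, stood at 10.38 and 9.87 with RXF393 against 6.36 and 6.23 with SKRC39, a change of 3.84 ± 0.63 (adjusted p = 0.0842, limma). Map3k6, the stress kinase ASK2, stood at 11.56 and 12.07 with RXF393 against 8.68 and 9.10 with SKRC39, a change of 2.92 ± 0.48 (adjusted p = 0.0842, limma). For both, the groups lay well apart without passing. Gadd45g, a stress-induced activator of MTK1, a kinase upstream of MKK3 and MKK6, stood at 1.54 ± 0.35 on its brighter probe (adjusted p = 0.17, limma), and its dimmer probe at -0.68 ± 1.51.

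The list of other isoforms, scaffolds and negative regulators held 16 genes, 11 of them tested. None passed in limma, 0 had an unadjusted p under 0.05, and the median change was 0.16. Its smallest p-values belonged to the phosphatase genes Ppp2ca (0.62 ± 0.27), Dusp4 (1.25 ± 0.63) and Ppm1d (1.09 ± 0.61).

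Substrates of p38, MK2 or the MNKs comprised 27 genes, of which 17 were tested. Of these, 0 rose and 1 fell in limma, and at an unadjusted p under 0.05, 3 were higher and 4 lower, with a median change of 0.36. Mef2c, a muscle transcription factor phosphorylated by p38, fell. It stood at 12.10 and 11.22 on the RXF393 arrays, against 14.66 and 14.86 on the SKRC39 arrays, with 10.32 on the array titled SKR_3 and 14.57 on the array titled RXF_1. The change was -3.10 ± 0.38 (adjusted p = 0.0430, limma). Changes on the remaining 3 tested probes were -3.18, -3.95 and -0.59, none of which passed (adjusted p = 0.0559, 0.12 and 0.52, limma). The Mef2c call held in 12 of 17 alternatives. It was lost in the authors' normalized table (adjusted p = 0.0505, limma), with probes averaged (0.10), under median scaling (0.15), without the intensity trend (0.21) and with all 6 arrays grouped by title (1.00).

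Eif4ebp1, the inhibitor of eIF4E, stood at 14.85 and 14.87 with RXF393 against 12.42 and 12.97 with SKRC39. The change was 2.17 ± 0.30 (adjusted p = 0.0559, limma). Zfp36, the mRNA-destabilising protein regulated by MK2, stood at 13.35 and 14.66 with RXF393 against 10.70 and 10.16 with SKRC39 (adjusted p = 0.0568, limma). Eif4ebp1 and Zfp36 missed the threshold narrowly, with groups that did not overlap.

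The neighbouring MAP kinase pathways were set beside the members. In the ERK list, 11 of 21 genes were tested, 7 others having no probe in the annotation used here, and 0 passed in limma. At an unadjusted p under 0.05, 1 was higher (Araf, a RAF kinase, 1.32 ± 0.38) and 1 lower (Dusp3, a phosphatase of ERK and JNK, -0.99 ± 0.30), and the median change was -0.22. Dusp7, an ERK phosphatase, stood at -1.37 ± 0.71. In the JNK list, 9 of 14 genes were tested, 0 passed in limma, 0 had an unadjusted p under 0.05, and the median was -0.18. Mapk8 (JNK1), Map3k1 (MEKK1) and Mapk9 (JNK2) had the smallest p-values there, at 0.73 ± 0.48, 0.63 ± 0.46 and -0.43 ± 0.34. The difference between the members and these lists was not tested.

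**Figure D4:**
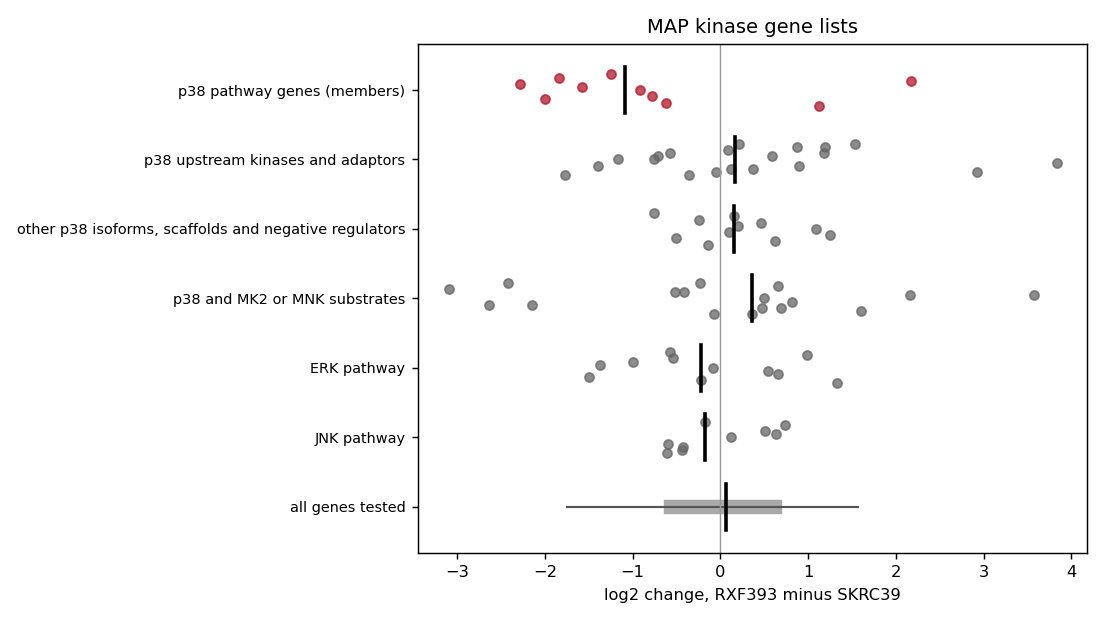
Log2 change of RXF393 minus SKRC39 (horizontal axis) for each tested gene of the p38 pathway members and of 5 neighbouring lists, with the median as a black bar; for all 10196 genes the thick bar spans the middle quartiles and the thin line the 5th to 95th percentile. The members' median lies at -1.08, and the medians of the other lists lie between -0.22 and 0.36. Members and lists were chosen with earlier results of these data known.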

How the data were processed

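Total RNA of quadriceps muscle was read on Illumina arrays (MouseWG-6 v2.0), as the labels' design text states. One table deposited by the authors holds non-normalized probe intensity and, per the file headers, a detection p-value for each probe and array. Their other deposited table holds intensity that, per the labels, GenomeStudio (module Gene Expression 1.9.0) normalised by quantiles. Of all probes, 34885 have 1 gene symbol in the platform annotation, 18 several and 10378 none, and 34807 matched RefSeq (GRCm38.p6) by gene ID.

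From the non-normalized table, log2 values were computed with neqc in limma 3.58.1 (R 4.3.3), which subtracts background by normexp using the detection p-values, adds an offset of 16 and normalises by quantiles over the 6 arrays. The offset shrinks the changes of dim probes. Probes with a detection p under 0.05 on at least 2 arrays were tested with lmFit and eBayes (intensity trend) on the 4 arrays whose labels agree. Where no array of a group detected a probe, each of its arrays was set to the higher of the probe's value and the lowest detected one. The fold is then a bound only if the other group's arrays all detected the probe. The fit was tested on data simulated with its own variances and independent arrays, so that test cannot check these assumptions. The number of arrays limits the precision.

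Members and lists were chosen with earlier results of these data known. All members and their probes are named, and from every other list the genes past the threshold and the 3 with the smallest p. Alternatives changed background, offset, table, scaling, filter, variance model, arrays, replicate block and the choice among a gene's probes.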

Additional observations from a re-analysis of the deposited data

Results flagged for a closer look

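The arrays titled RXF_1 and SKR_3 entered no comparison above. On the brightest probe of each member, 3 values on them lay above both SKRC39 arrays by more than those arrays differ from each other. Mknk2 stood at 15.61 on the array titled SKR_3, against 13.72 and 13.43 on SKRC39 replicates 1 and 2. Mknk1 stood at 11.33 on the array titled RXF_1, against 11.13 and 11.07 on the SKRC39 arrays. Mapkapk3 stood at 11.16 on the array titled RXF_1, against 10.76 and 10.61 on the SKRC39 arrays. The SKRC39 arrays differ by little for Mknk1 and Mapkapk3. Below both SKRC39 arrays by more than their difference lay 6 members on the array titled SKR_3 (Mapk14, Mapk12, Map2k3, Mapkapk2, Mapkapk3 and Mknk1) and 0 members on the array titled RXF_1.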

How the results depend on the processing

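Mknk2 remained the only member past the threshold without background subtraction, with offset 50, in the authors' normalized table, under all 3 other detection filters, with a gene's probes averaged, and without either SKRC39 array. In limma, 0 members passed under median scaling and without the intensity trend (2 at an unadjusted p under 0.05 in each), and 0 with all 6 arrays grouped by title (0 unadjusted). Grouping all 6 by characteristics gave 2. Leaving out 1 array gave 0 to 5 members and a median change of -1.57 to -0.12: 5 passed without RXF393 replicate 2, and 0 without RXF393 replicate 3 (1 unadjusted). These fits leave 1 array in a group, assumed to vary like the others. By title the median was -0.027. With the description number (1 and 3 in both groups) as a replicate block, 1 member passed. That number is not said to mark a shared animal or batch, and the deviations of same-numbered arrays correlated at 0.488, a single value since 2 arrays a group mirror each other. With the replicate block on all 6 arrays by characteristics, 7 passed. Directions of Mapk14 turned without RXF393 replicate 3 and by title, those of Mapk12 and Mapkapk3 by title, none of these values passing. The 1 gene called in the other pathway lists (Mef2c) became 0 in the authors' normalized table, under median scaling, without the intensity trend, by title and with probes averaged. It became 2 without a detection filter, 5 among probes detected on all 6 arrays, 1 to 7 leaving out 1 array, 7 with the replicate block, 14 by characteristics and 24 by characteristics with the replicate block. Over all genes, 20 rose and 16 fell. Without RXF393 replicate 2, 173 and 277 did, without RXF393 replicate 3, 6 and 14, without SKRC39 replicate 1, 45 and 20, and without SKRC39 replicate 2, 74 and 60. By characteristics 1072 and 796 did, among probes detected on all 6 arrays 94 and 53, with the replicate block 189 and 167, and 0 by title, under median scaling and without the trend (limma). Dim probes (Map2k6, Dusp10) are limited by signal over background, and Mknk2 by the top of the range.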
